A study of Caenorhabditis elegans with 2 samples.

Results

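Binding of LIN-15B at divergent gene pairs was examined, that is, at gaps between 2 neighbouring protein-coding genes of which the left one lies on the minus strand and the right one on the plus strand, so that both genes are transcribed away from the gap. A peak belonged to the set when it came from the list of peaks that passed the irreproducible discovery rate (IDR) comparison of the replicates, lay on 1 of the 5 autosomes, and had its summit in such a gap, within 500 bp upstream of the annotated 5′ end of either gene. Of the 3331 peaks in that list, 988 met the rule, which is 33.1% of the 2988 autosomal peaks (exact 95% Clopper-Pearson interval 31.4 to 34.8%). The lists came from chromatin immunoprecipitation and sequencing (ChIP-seq) of whole L3 larvae of Caenorhabditis elegans, in 2 biological replicates of 1 group. The animals were of strain OP184, which carries the unc-119(tm4063) mutation on chromosome III and the integrated transgene wgIs184 for an eGFP-LIN-15B fusion, and both sexes were pooled. The labels name no change to the endogenous lin-15B gene, and there was no second strain, stage or genotype. Signals are therefore averages over all cells of the larva, and a peak in few cells cannot be told apart from a weak peak in many.

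LIN-15B is a nuclear protein with a THAP zinc finger. Its gene is one of the class B synthetic multivulva (synMuv B) genes, several of which encode parts of the DREAM complex with the Retinoblastoma homologue LIN-35, and the class is known for keeping germline genes silent in somatic cells. In a divergent pair the upstream regions of both genes share the same stretch of DNA. Many C. elegans transcripts are trans-spliced, which means that a spliced leader replaces the first stretch of the transcript. The annotated 5′ end of such a gene can then be the splice acceptor and not the place where transcription starts.

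The sequences around 6 summits are shown first, as examples of the letters under strong shared peaks; capitals mark GAGA repeats, GC repeats and E2F-type words only. Each window covers 50 bp to each side of the summit, on the plus strand of ce11, from the RefSeq genome. The windows of rpl-20/Y17G9B.5 (chrIV:4750026-4750126), farl-11/rpl-33 (chrII:7105122-7105222), rpl-15/K11H12.8 (chrIV:654874-654974) and syf-2/K04G7.1 (chrIII:7162470-7162570) are among the highest peaks and hold none of the marked words. The window of C17H12.2/vha-8 (chrIV:6790571-6790671) has a GAGA repeat in capitals, and that of npp-3/top-2 (chrII:11874830-11874930) has a match to an E2F-type word in capitals and was chosen for it after its letters had been seen.
rpl-20/Y17G9B.5: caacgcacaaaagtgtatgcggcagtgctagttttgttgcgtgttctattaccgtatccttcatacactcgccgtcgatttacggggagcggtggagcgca
C17H12.2/vha-8: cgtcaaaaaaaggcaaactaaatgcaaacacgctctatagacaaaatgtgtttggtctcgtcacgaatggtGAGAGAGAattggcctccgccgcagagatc
farl-11/rpl-33: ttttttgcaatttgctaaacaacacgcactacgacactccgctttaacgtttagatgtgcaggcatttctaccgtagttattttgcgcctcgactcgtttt
rpl-15/K11H12.8: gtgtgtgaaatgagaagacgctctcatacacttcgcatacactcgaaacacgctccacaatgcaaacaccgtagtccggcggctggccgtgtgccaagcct
syf-2/K04G7.1: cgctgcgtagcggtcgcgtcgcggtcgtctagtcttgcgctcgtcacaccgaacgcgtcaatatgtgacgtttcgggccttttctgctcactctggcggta
npp-3/top-2: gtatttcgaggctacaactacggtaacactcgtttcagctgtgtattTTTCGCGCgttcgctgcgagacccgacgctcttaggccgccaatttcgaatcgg

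Divergent gaps held a promoter summit more often than tandem gaps, in which both genes lie on the same strand. A summit within 500 bp of either gene was found in 951 of 3641 divergent gaps (26.1%, interval 24.7 to 27.6%). In tandem gaps, where only the downstream gene has its 5′ end in the gap, 562 of 8715 held a summit within 500 bp of it (6.45%, interval 5.94 to 6.98%). Since a divergent gap has 2 ends to search, the searched length was counted too. There were 0.352 member peaks per searched kb in divergent gaps, against 0.165 peaks per searched kb in tandem gaps. In short gaps both ends are searched on the same bases, so this does not correct for the number of ends. Counted by end, 1497 of 7282 ends at divergent gaps had a summit within 500 bp (20.6%), against 6.45% of the tandem ends. A shared peak counts here for both of its ends. Tandem gaps include those between genes of one operon, which were not separated. Both arrangements were read from a single list, so these are shares of 1 peak set with intervals for counting error, and no test between groups of samples was possible.

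The share depended on gap length. Among gaps of 251 to 500 bp, which are searched from end to end in both arrangements, 263 of 506 divergent gaps held a summit (52.0%, interval 47.5 to 56.4%), against 173 of 1253 tandem gaps (13.8%, interval 11.9 to 15.8%). Among gaps of up to 250 bp the shares were 29.0% of 362 divergent gaps and 3.83% of 2009 tandem gaps. Both arrangements thus had their highest share at 251 to 500 bp, and the intervals of the arrangements did not overlap in any of the 6 length classes. These shares are per gap and not per 5′ end. The share then declined with length, to 34.0% of divergent and 8.18% of tandem gaps of 501 to 1000 bp, and to 13.3% of divergent and 3.26% of tandem gaps of over 4000 bp. Divided at 1000 bp, 630 of 1639 shorter divergent gaps held a member summit (38.4%), against 321 of 2002 longer ones (16.0%). The median length was 627 bp for divergent gaps with a member summit and 1500.5 bp for those without.

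**Figure D1:**
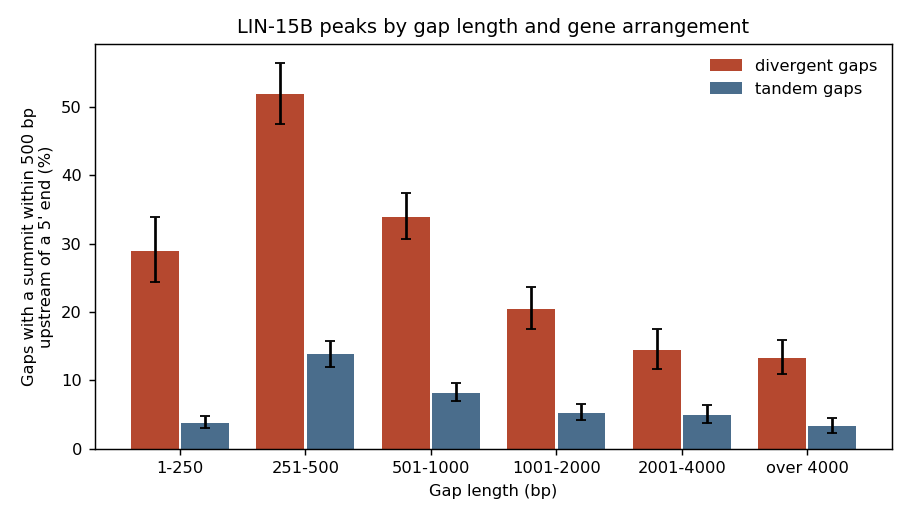
Share of gaps (%) that hold an IDR summit within 500 bp upstream of an annotated 5′ end, by gap length in bp, for divergent gaps and tandem gaps; error bars are exact 95% intervals for counting error. Divergent gaps lie above tandem gaps in every class, and both reach their highest share, 52.0% and 13.8%, at 251 to 500 bp.

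The share of peaks within reach of both genes depends on the limit that defines reach. Of the 988 member peaks, 517 had their summit within 500 bp of both 5′ ends (52.3%, interval 49.2 to 55.5%), in 516 gaps with a median length of 388.5 bp. With a limit of 200 bp the share was 24.9%, and with 1000 bp it was 65.3%. The remaining 471 peaks lay within 500 bp of 1 gene, 249 of them of the minus-strand gene and 222 of the plus-strand gene, and 350 of these 471 were in gaps of over 1000 bp, where the rule allows no peak within reach of both. The strands were about even: 487 summits were nearer to the minus-strand gene, 498 nearer to the plus-strand gene and 3 at equal distance. A pair of member summits was found in 37 of the 951 gaps (3.89%), with a median spacing of 852 bp, and 0 gaps held more. In the 321 longer gaps with a member, 26 had peaks upstream of both genes (8.10%).

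The position of shared peaks ranged from the middle of the gap to its borders. Their summits were 1 to 450 bp from the nearer gene, with a median of 128 bp, at a median of 259 bp from the farther one, and at a median of 56 bp from the middle of the gap. They were at a median of 185 bp from the minus-strand gene and 179 bp from the plus-strand gene. In gaps of 251 to 500 bp, where the rule leaves the summit free to lie anywhere, 143 of 264 summits fell in the middle 1 of 3 equal parts of the gap (54.2%, interval 47.9 to 60.3%). In gaps of up to 250 bp the middle part held 43 of 105 summits (41.0%, interval 31.5 to 51.0%), and in gaps of 501 to 1000 bp it held 105 of 269 summits of all members, shared or not (39.0%, interval 33.2 to 45.1%). The middle part held over 1 in 2 summits only in the class of 251 to 500 bp among these 3. In gaps of 1001 to 2000 bp 9 of 162 summits lay in the middle part, which the 500-bp limit largely leaves out.

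**Figure D2:**
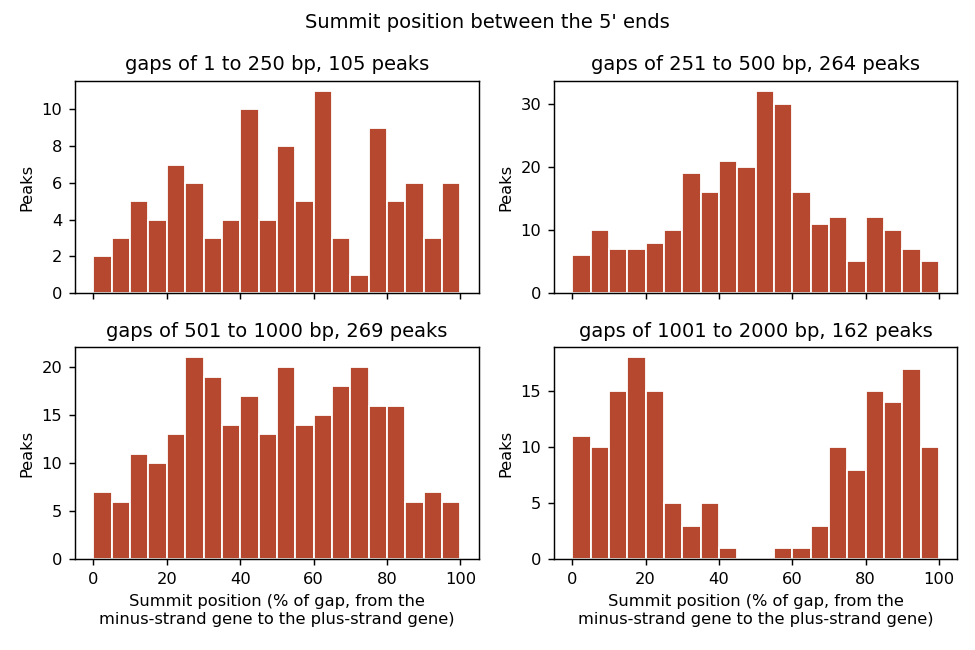
Summit position as a percentage of the gap, counted from the 5′ end of the minus-strand gene to that of the plus-strand gene, in 4 classes of gap length; the y axes count member peaks and differ between panels. Summits gather around the middle in gaps of 251 to 500 bp, and form a cluster upstream of each gene in gaps of 1001 to 2000 bp, where the 500-bp limit excludes most of the centre.

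The rule caps the distance to the nearer gene at 500 bp, so only its spread below that limit is described. It had a median of 152 bp over all members, with quartiles of 83 and 229 bp, against a median of 186 bp for the 566 peaks upstream of tandem genes. The commonest range was 101 to 200 bp, with 38.4% of members and 34.1% of tandem promoter peaks. Within 50 bp of the 5′ end there were 15.1% of members and 8.30% of tandem promoter peaks. The nearer of 2 ends is closer by construction in shared peaks. For one-gene members, which have the geometry of a tandem promoter, the median was 184 bp. Just inside the 500-bp limit were the peaks of Y56A3A.33/brp-1 and clec-91/mel-26, both 494 bp from the nearer gene, with signals of 58.4 and 27.8. Just outside it were those of lst-4/ccar-1 at 502 bp, with a signal of 40.1, and of K12H4.6/K12H4.5 at 503 bp, with a signal of 520.3, so that 1 peak of high rank was left out by 3 bp.

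The type of 5′ end went with the distance. The 6 bases directly before each annotated 5′ end were searched for TTNCAG, on the strand of the gene, the form of a C. elegans splice acceptor; the word was chosen after the letters of 1 gap had been read. It preceded 568 of the 1497 ends with a member summit upstream (37.9%, interval 35.5 to 40.5%) and 829 of the 5785 ends of divergent gaps without one (14.3%, interval 13.4 to 15.3%). Tandem genes gave 245 of 562 ends with a summit (43.6%), against 1755 of all 8715 tandem ends (20.1%), so the higher share at bound ends was found in both arrangements.

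Summits stood farther from such acceptor-like ends. Among shared peaks, the median distance was 225 bp to 395 ends preceded by the word and 155 bp to 639 ends without it. One-gene members gave 216.5 bp for 174 ends with the word and 154 bp for 297 ends without it. Both quartiles differed as well: for shared peaks they were 154.5 and 311.5 bp at ends with the word, and 76 and 256 bp at ends without it. The same contrast could be read within a pair. At 265 shared peaks, 1 of the 2 ends was preceded by the word, and at 184 of them (69.4%, interval 63.5 to 74.9%) the summit was farther from that end than from the partner. Over all 265, the median distance was 235 bp to the end with the word and 162 bp to the end without it. At 65 shared peaks both ends were preceded by the word and at 187 neither was. Whether ends without the word are places where transcription starts was not tested.

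**Figure D3:**
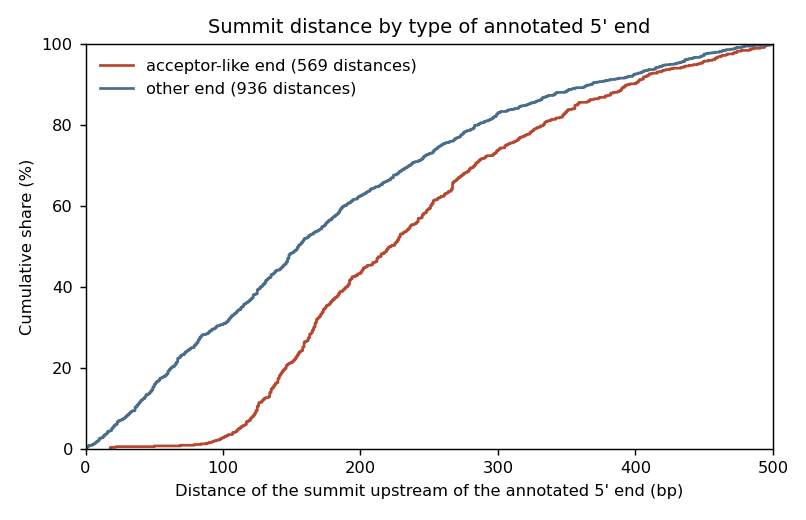
Cumulative share (%) of summit distances, in bp upstream of the annotated 5′ end, for acceptor-like ends and for other ends of genes with a member summit within 500 bp; a shared peak adds 1 distance for each of its genes. The curve of acceptor-like ends stays near 0 up to about 100 bp, where that of other ends has already risen.

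Member peaks were among the stronger ones of the list. The signal is the authors' own, its scale is not stated, and it is used only to describe and rank peaks. Its median was 77.3 in members (range 22.7 to 1164), against 61.9 in tandem promoter peaks and 40.9 in the 1434 other autosomal peaks. Shared peaks had a median of 90.7 and one-gene members one of 69.5. When the autosomal peaks were split by signal into 5 groups of equal size, members made up 17.4% of the lowest group, then 22.4%, 32.2% and 38.8%, and 54.6% of the highest. Tandem promoter peaks made up 13.4% of the lowest group and 22.8% of the highest. Of the 100 highest autosomal peaks, 64 were members and 22 were tandem promoter peaks. Members in gaps of up to 500 bp had a median signal of 90.5, and those in gaps of over 4000 bp one of 56.6. Peak by peak, Spearman's rho of signal was -0.12 with gap length and 0.017 with distance to the nearer gene, both over 988 peaks of the same libraries, as descriptions.

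Each of the 988 peaks overlapped an entry in both replicate lists (24760 and 27552 entries), as the IDR comparison of these lists requires, so this overlap says nothing of reproducibility. The median signal of the matched entries was 35.3 in replicate 1 and 42.8 in replicate 2, and the log2 ratio of replicate 2 over replicate 1 had a median of 0.26 and an SD of 0.53 over the 988 peaks. Signals in the replicates went together, with a Spearman's rho of 0.921 over 988 peaks called from both libraries. The summit moved by a median of 13 bp between the replicates, with quartiles of 6 and 27 bp, which is small beside the distances above. Among the strongest 3331 entries of each replicate, 874 of the 951 gaps (91.9%) held a promoter summit in replicate 1 and 899 (94.5%) in replicate 2. Of the 2690 gaps without a member, 3 held one in both. The IDR list was itself drawn from these replicate lists. These shares and the rho therefore describe peaks selected for being found in both, and are no independent check of reproducibility.

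**Figure D4:**
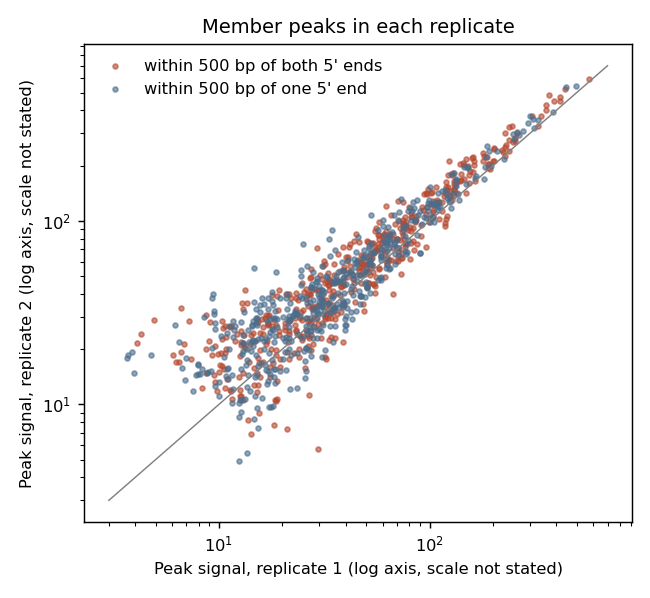
Signal of each member peak in replicate 1 (x axis) and replicate 2 (y axis), both logarithmic and on the authors' scale, for peaks within 500 bp of both 5′ ends and of one 5′ end; the grey line marks equal signals. Points lie slightly above the line (median log2 ratio 0.26) and scatter more at low signal.

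Of the 20 highest members, 9 had within 500 bp a gene of the ribosomal protein, translation factor or aminoacyl-tRNA synthetase lists (45%, interval 23.1 to 68.5%), against 97 of all 988 (9.82%); the groups of genes were chosen after the names had been seen. The highest, at rpl-20, which encodes a large-subunit ribosomal protein, and its neighbour Y17G9B.5, had a signal of 570 in replicate 1 and 596 in replicate 2 and lay 298 bp from rpl-20 and 164 bp from Y17G9B.5. The peak of iff-2, an eIF5A gene, and F54C9.14 had 494 and 545 in replicates 1 and 2, at 70 bp from iff-2. The peak of K01G5.10/tasp-1 had 442 and 534 in replicates 1 and 2, at 42 bp from tasp-1. Genes outside protein synthesis were thus among the highest too, as was ndk-1, a nucleoside diphosphate kinase gene, whose peak with F25H2.6 had 418 and 448 in replicates 1 and 2. The peak shared by ska-3, a spindle and kinetochore gene, and the ribosomal protein gene rps-12, had 440 in replicate 1 and 521 in replicate 2. That of rpl-12 and lin-54, which encodes the DNA-binding subunit of the DREAM complex, had 392 and 448 in replicates 1 and 2 and lay 30 bp from rpl-12 and 363 bp from lin-54. C17H12.2/vha-8, with a subunit gene of the vacuolar ATPase, had 358 and 430 in replicates 1 and 2. Replicate 2 was the higher at each of these peaks, as it was for the median of all members. The peak at rpl-35 shows the other extreme of geometry: it lay 456 bp from rpl-35 but 11042 bp from ZK652.8, in a gap of 11497 bp, with 384 in replicate 1 and 390 in replicate 2.

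Gene lists describe some of the kinds of genes with a member summit. The lists were chosen with earlier results of these data known. Their shares are therefore descriptions, and the intervals cover counting error only. Of the 7282 autosomal protein-coding genes that flank a divergent gap with their 5′ end, 1497 had a member summit within 500 bp upstream (20.6%), and the lists are read against that share. Many housekeeping genes also have short gaps, so the count in gaps of up to 500 bp is given for most lists. Over all genes it was 736 of 1736 (42.4%), and the short-gap counts are read against that share. Paired genes share peaks, so list members are not independent.

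Ribosomal protein genes were bound at nearly all their divergent gaps. Of 53 cytosolic ribosomal protein genes that flank such a gap, 46 had a member summit (86.8%, interval 74.7 to 94.5%), and in gaps of up to 500 bp it was 18 of 20. Their median signal was 240.8, against 82.1 over all 1497 bound genes. For 38 of the 46 the peak was shared with the partner. In 32 shared peaks 1 gene of the pair was a cytosolic ribosomal protein gene, and in 23 of these (71.9%, interval 53.3 to 86.3%) the summit was farther from it than from the partner. Of the 46 bound ends, 35 were preceded by TTNCAG (76.1%), and over all 53 flanking ends, bound or not, it was 39 (73.6%). With a limit of 200 bp only 7 ribosomal protein genes would have counted as bound. The genes without a member summit were rpl-11.1, rpl-30, rpl-42, rpl-43, rps-18, rps-27 and rps-29, and rpl-43 and rps-27 had a strong peak in their gap that lay 740 and 615 bp away, nearer to Y48B6A.1 and picd-1.

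At 3 of the 517 shared peaks both genes encode cytosolic ribosomal proteins, of opposite subunits. The peak of rps-14/rpl-36 had 154 in replicate 1 and 161 in replicate 2 and lay 269 bp from rps-14 and 394 bp from rpl-36. That of rpl-39/rps-30 had 118 and 97.2 in replicates 1 and 2 and lay almost midway, 251 bp from rpl-39 and 248 bp from rps-30. That of rps-10/rpl-24.1 had 118 and 93.9 in replicates 1 and 2, at 342 bp from rps-10 and 268 bp from rpl-24.1. In the last 2 pairs replicate 1 was the higher, unlike in most members. The peak of rpl-28/mrpl-49, which pairs a cytosolic with a mitochondrial ribosomal protein gene, had 253 in replicate 1 and 284 in replicate 2.

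Lists of protein turnover and of other steps of gene expression also had shares above that over all genes. Proteasome subunits had a member summit at 20 of 22 genes (90.9%), all but pas-2 and rpn-6.1, and 17 shared the peak with the partner. In gaps of up to 500 bp the count was 10 of 12. At pas-4/rpb-3, a subunit of the proteasome core beside one of RNA polymerase II, the peak had 123 and 153 in replicates 1 and 2 and lay 139 bp from pas-4 and 138 bp from rpb-3. At hsp-110/rpn-3, a chaperone gene beside one of the proteasome's regulatory particle, it had 326 and 330 in replicates 1 and 2. Both peaks lay well inside their gaps. Mitochondrial ribosomal proteins counted 26 of 33 (78.8%), translation factors 18 of 25 (72%), aminoacyl-tRNA synthetases 11 of 16 (68.8%) and chaperones 22 of 35 (62.9%). In gaps of up to 500 bp these lists counted 14 of 18, 9 of 13, 5 of 6 and 10 of 16, in the same order. Splicing and RNA processing genes counted 28 of 33 (84.8%), with 18 of 19 in gaps of up to 500 bp. Subunits of RNA polymerase, Mediator and Integrator counted 18 of 22 (81.8%), including all 13 in gaps of up to 500 bp. At ints-11/rpl-10 the summit lay 13 bp from ints-11, an Integrator subunit gene, and 390 bp from rpl-10.

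Mitochondrial respiration genes had a member summit at 18 of 22 (81.8%), and at 12 of 14 in gaps of up to 500 bp. At mcrs-1/atp-1 it lay 3 bp from atp-1, which encodes the alpha subunit of ATP synthase, with 246 in replicate 1 and 327 in replicate 2. At atp-3/F27C1.2, with another ATP synthase gene, it lay 27 bp from atp-3, with 129 in replicate 1 and 183 in replicate 2. Genes of the nuclear pore and nuclear transport counted 19 of 29 (65.5%), the vacuolar ATPase, sorting and traffic 33 of 57 (57.9%), and ubiquitin conjugation and removal 16 of 42 (38.1%). In gaps of up to 500 bp the nuclear pore and transport list counted 8 of 12 and the traffic list 13 of 20. The ubiquitin list counted 6 of 12 in such gaps (50%), against 42.4% over all genes. Of the 517 shared peaks, 38 joined genes that are both in a list, 190 had 1 such gene and 289 had none. The same split was not counted over all divergent pairs. Whether list genes are commoner at shared peaks was therefore not tested.

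Cell cycle, mitosis and replication genes had a member summit at 51 of 83 (61.4%, interval 50.1 to 71.9%), and at 23 of 31 in gaps of up to 500 bp. At npp-3/top-2, a nucleoporin gene beside topoisomerase II, the peak had 142 and 166 in replicates 1 and 2 and lay 92 bp from npp-3 and 268 bp from top-2, with the E2F-type word in its window. At orc-5/cyb-1, an origin recognition gene beside a B-type cyclin, the summit was 125 bp from orc-5 and 503 bp from cyb-1, so the rule counted orc-5 only. At iff-1/cdk-1, a second eIF5A gene beside the mitotic kinase, the peak was weaker, with 27.4 in replicate 1 and 42.8 in replicate 2.

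Genes of LIN-15B's own class had member summits within 500 bp upstream as well. Of 9 synMuv B, DREAM and heterochromatin genes at divergent gaps, 7 had a member summit (77.8%, interval 40.0 to 97.2%), all but let-418 and lin-13, whose gaps measure 13695 and 2817 bp. The vps-51/lin-35 peak, at the Retinoblastoma homologue, had 141 and 179 in replicates 1 and 2 and lay 185 bp from lin-35. The lin-9 peak, at a core DREAM gene beside unc-32, had 252 and 281 in replicates 1 and 2, 158 bp from lin-9. The lin-53 peak, at a gene for a histone-binding protein of the RbAp48 family and shared with nra-2, had 128 and 178 in replicates 1 and 2, 236 bp from lin-53. The weakest of the 7 was lin-61/bub-1, with 44.1 in replicate 1 and 36.3 in replicate 2. At 3 of the 7 genes the summit was farther from the list gene than from the partner. It lay 363 bp from lin-54 and 30 bp from rpl-12, and 430 bp from lin-61 and 229 bp from bub-1. The third was lin-53, with nra-2 at 231 bp. To which gene of a pair a shared peak belongs was not tested.

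The lists of chemoreceptors, nuclear hormone receptors, cuticle collagens and ceh homeobox genes had lower shares at divergent gaps than all genes. Chemoreceptor genes had a member summit at 6 of 451 (1.33%, interval 0.490 to 2.87%) and nuclear hormone receptor genes at 5 of 93 (5.38%). The 6 chemoreceptor genes all shared the peak with a partner. Cuticle collagen genes counted 3 of 47 (6.38%), and each shared its peak: col-38 with rpl-5, col-2 with the kinetochore gene ndc-80, and col-71 with Y49F6B.2. Homeobox genes named ceh counted 0 of 16, which allows a share of up to 20.6% (upper bound of the exact 95% interval). These lists also have few short gaps. Of 29 chemoreceptor genes in gaps of up to 500 bp, 3 were bound (10.3%), against 42.4% over all genes. In such gaps 2 of 9 nuclear hormone receptor genes (22.2%) and 1 of 5 collagen genes (20%) were bound. The counts for receptors of this second kind and for collagens are too small to set beside the share over all genes.

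Core and linker histone genes had few peaks for the length of their gaps. Of 66 that flank a divergent gap, 61 do so at a gap of up to 500 bp, and 11 of these 61 had a member summit (18.0%), against 42.4% over all genes. The peaks were weak: his-67/his-68 had 21.9 in replicate 1 and 37.9 in replicate 2, and his-61/his-62 had 10.5 and 15.7. A histone variant gene was the exception, with htz-1 (H2A.Z) and wapl-1 sharing a peak of 194 and 191 in replicates 1 and 2. Most core histone genes are near-identical copies, so reads could have been split or discarded among them, and their share is uncertain.

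**Figure D5:**
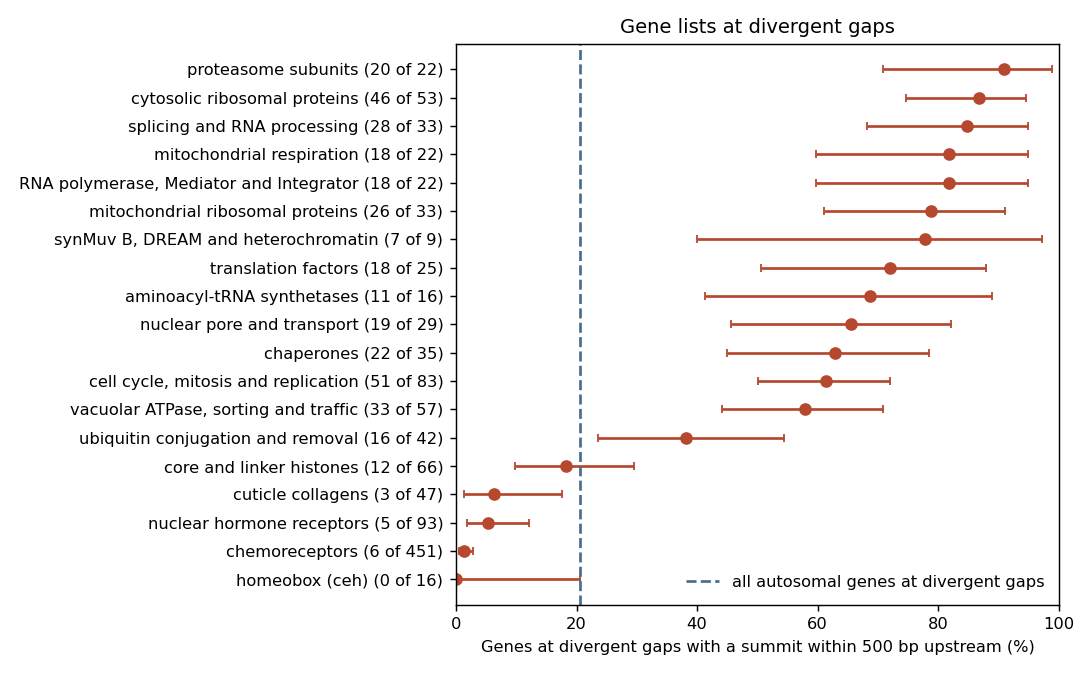
Share (%) of the genes at divergent gaps that have a member summit within 500 bp upstream, by gene list, with exact 95% intervals for counting error; the dashed line is the share over all autosomal genes at divergent gaps (20.6%). Lists of proteasome, ribosome, splicing and polymerase genes lie right of the line, the receptor, collagen and homeobox lists at or left of it, and histones on it. The line is not matched for gap length, and in gaps of up to 500 bp the share over all genes was 42.4%.

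Base composition at the summits was compared with that of other peaks and of gaps without a peak, in windows of 50 bp to each side. GC content averaged 45.8 ± 7.09% (SD, n = 988 windows) at member summits, 45.5 ± 7.04% (n = 566) at tandem promoter peaks and 47.6 ± 7.32% (n = 1434) at other autosomal peaks. At the middles of the divergent gaps without an IDR summit it averaged 33.9 ± 8.23% (n = 2472), and in those of up to 500 bp 33.9 ± 9.27% (n = 454). In these windows the difference between members and gaps without a peak was larger than the SD of either. With 100 bp to each side it was not, with 39.5 ± 6.48% at members, 44.7 ± 7.04% at other autosomal peaks and 33.9 ± 6.72% at the middles. With 50 bp to each side, GC content was 49.7 ± 6.33% in the 197 members of highest signal and 43.2 ± 6.86% in the 197 of lowest signal. With 100 bp to each side these values were closer, at 42.0 ± 6.27% and 38.1 ± 6.63%. GC content can also affect how well fragments are amplified and recovered, and its part in the signal was not tested.

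Short words were searched on both strands of the windows of 50 bp to each side. The GAGA repeat GAGAGA was found in 18.4% of members and 17.3% of tandem promoter peaks, but in 35.1% of other autosomal peaks and 5.74% of the middles of gaps without a summit. Among members it was found in 14.3% of shared (interval 11.4 to 17.6%) and 22.9% of one-gene peaks. At the middles of gaps of up to 500 bp without a summit it was found in 9.03% (interval 6.56 to 12.1%). That interval overlaps the one of shared peaks. The GC repeat GCGCGC was found in 12.2% of members, 13.6% of tandem promoter peaks, 6.97% of other autosomal peaks and 1.01% of the middles. It was in 20.3% of the 197 members of highest signal (interval 14.9 to 26.6%) and 8.12% of the 197 of lowest signal (interval 4.71 to 12.9%). The GAGA repeat went the other way, with 13.7% of the highest and 22.3% of the lowest, with overlapping intervals. Where a GC repeat lay within 200 bp of a member summit, its median distance from it was 27.5 bp, against 50.5 bp for the GAGA repeat. Any of the E2F-type words TTTCCCGC, TTTGGCGC, TTTGCCGC and TTTCGCGC, the last of which can overlap a GC repeat, was found in 5.06% of members, 8.13% of tandem promoter peaks, 5.44% of other autosomal peaks and 1.29% of the middles.

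The TATA word TATAAA was in 3.85% of members and 13.4% of the middles, and with 100 bp to each side in 14.9% of members and 26.0% of the middles. A run of 7 T was in 11.8% of members and 23.1% of the middles, but with 100 bp to each side in 38.2% of members and 39.5% of the middles, with overlapping intervals. The words of the cell cycle homology region, TTTGAA and TTCGAA, were in 31.3% of members, 32.0% of tandem promoter peaks, 20.2% of other autosomal peaks and 37.5% of the middles. With 100 bp to each side they were in 58.1% of members and 58.8% of the middles. In the 197 members of highest signal they were in 20.8% with 50 bp to each side, against 30.5% of the 197 of lowest signal. With 100 bp to each side these shares were 56.9% and 55.3%. The E-box CACGTG was in 2.63% of members, 3.36% of tandem promoter peaks, 3.42% of other autosomal peaks and 1.54% of the middles. The GC box GGGCGG was in 5.57% of members, 5.83% of tandem promoter peaks, 6.83% of other autosomal peaks and 2.18% of the middles. At the middles of gaps of up to 500 bp without a summit, with 50 bp to each side, the TATA word was in 16.7%. In these windows the run of 7 T was in 26.2%, the cell cycle words in 37.0%, and the E-box and the GC box each in 3.08%. A match is a description of letters, and the difference in GC content bears on how often each word occurs.

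Chromosomes differed in how many divergent gaps were bound. The share with a member summit was 41.6% of 555 gaps on chromosome III, 37.5% of 616 on I, 24.6% of 710 on IV, 20.7% of 723 on II and 15.8% of 1037 on V. Tandem gaps had 8.62% on III, 9.61% on I, 6.67% on IV, 6.77% on II and 3.39% on V, so chromosome V was the lowest in both arrangements. The median divergent gap was also shorter on III and I, at 949 and 944 bp, against 1265 to 1290 bp on II, IV and V. In the central 50% of the length of the chromosomes 29.0% of divergent gaps were bound and in the outer 50% it was 22.4%, but among gaps of up to 500 bp the shares were 43.1% and 41.3%, with overlapping intervals.

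Non-coding genes, which the rule ignores, overlapped 200 of the 951 member gaps (21.0%) and 841 of the 2690 divergent gaps without a member (31.3%). The gaps without a member are longer, with a median of 1500.5 bp against 627 bp. These shares were not matched for gap length. In 56 members the summit lay inside a non-coding gene, in 52 of them one of the class ncRNA. The shortest member gap, F25H9.6/F25H9.7 with 14 bp, had its summit 14 bp from F25H9.6 and 1 bp from F25H9.7, with 55.3 in replicate 1 and 44.4 in replicate 2. The longest, nspa-10/haf-7 with 22800 bp, had its summit 54 bp from haf-7. In gaps this long the pair shares no promoter region in the sense of the rule. Among gaps with 2 members, ntl-11/Y73F8A.27 had the strongest peak, with 294 and 341 in replicates 1 and 2 at 127 bp from ntl-11, and a further one with 183 and 195 in replicates 1 and 2 at 218 bp from Y73F8A.27.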

How the data were processed

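Per the deposited text records and the labels, peaks were called in each of 2 replicates and compared by IDR. The sources used here do not name the aligner, the peak caller or the IDR threshold. Signal values are the ones the authors deposited, on a scale no record states, and were not rescaled. Without read counts the depth is unknown, precision rests on how many peaks there are, and intervals cover counting error only.

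The ce11 lists were used. A summit is the start plus the deposited offset. Gaps were built between merged autosomal protein-coding genes of WBcel235 (the same assembly as ce11; Ensembl annotation release 115), and bases came from the RefSeq genome. Replicate entries were matched by an overlap of at least 1 bp. Members, gene lists and words were chosen with earlier results of these data known; pairs named in the text are those at the 20 highest members, up to 4 highest pairs of each list, pairs with both genes in lists, the shortest and longest gaps and summits nearest the limit. Genes without a member were named after the counts were seen. Python 3.11.15, numpy 2.4.6 and scipy 1.17.1 were used, and the assignment of summits was checked on simulated peaks. Alternatives were other limits, lists, annotations and windows.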

Additional observations from a re-analysis of the deposited data

How the results depend on the processing

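The share of divergent gaps with a member, 26.1%, was 18.0% at a limit of 200 bp, 28.1% at 1000 bp, 17.9% with the 1665 highest peaks only (the stricter list), 28.9% in gaps with no non-coding gene and 27.7% with start codons as gene ends; that of tandem gaps was 3.43%, 7.64% and 3.91% under the first 3 of these. The median member gap was 470.5 bp, 687 bp, 612.5 bp, 558 bp and 762 bp in the same order, 625 bp with peak middles as summits and 628.5 to 630.5 bp with 1 replicate alone. The commonest peak width, 310 bp, was that of 448 of the 988 members. At list genes, peaks of this width have their summit at the middle. Peak middles leave such peaks unchanged by construction. The median distance to the nearer gene was 114 bp at 200 bp, 162 bp at 1000 bp, 142 bp without non-coding genes, 180 bp from start codons and 147 to 153 bp with 1 replicate. The share of members within reach of both genes was 24.9%, 65.3%, 59.2% and 47.0% under these 4 settings. The ratio of median signals, members over all autosomal peaks, was 1.41, with 1.35 at 1000 bp, 1.18 with the stricter list and 1.44 to 1.48 with 1 replicate. List genes with a member fell to 172 of 359 at 200 bp, and ribosomal protein genes to 7 of 46, and to 26 in gaps with no non-coding gene. With 25 and 100 bp to each side, GAGA repeats were in 10.4% and 30.0% of windows and GC repeats in 8.10% and 15.9%. Members with summits within 100 bp in both replicates were 98.4%.

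Chosen after seeing the data: TTTCAG in place of TTNCAG gave 25.9% of ends with a member and 9.33% without, and CAG alone 41.8% and 16.4%; with the stricter list, ends without a member gave 16.0%, and gaps of 251 to 500 bp gave 37.0% when divergent and 9.18% when tandem. The order of the groups stayed the same in each of these. The narrower limits, the shorter list and the smaller annotation each change the counts by their construction. No paired analysis was possible because there is 1 group of samples. Depth is unknown, and the 2 replicates share a strain and stage.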
